A study of Mus musculus with 17 samples.

Results

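The genes described are those that encode the subunits of oxidative phosphorylation, in the nucleus and in mitochondrial DNA. They were picked by mouse symbol (Nduf a, b, c, s and v genes, Sdha to Sdhd, Uqcr, Cox5 to Cox8, Atp5 and the mitochondrial mt-Nd, mt-Co, mt-Cytb and mt-Atp genes, with Cyc1 and Cycs), which gave 101 of the 53379 genes in the count table. Of these, 88 are nuclear: 38 for complex I, 4 for complex II, 9 for complex III, 19 for complex IV, 17 for complex V and the electron carrier Cycs. The other 13 lie in mitochondrial DNA: 7 for complex I, 1 for complex III, 3 for complex IV and 2 for complex V. The match by symbol left 8 genes marked as pseudogenes out, kept 4 that the annotation calls processed pseudogenes (Ndufa11b, Ndufb4c, Ndufs6b and Cox6c2), kept Atp5s, which is not a subunit, and missed some true subunits such as Cox4i1 and Ndufab1.

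Messenger RNA was sequenced from kidney cortex enriched for glomeruli, in 17 mice of the BTBR strain. The lean controls were 5 wild type mice (genotype label WT-d30). The obese, diabetic mice were BTBR ob/ob, which carry the Lep ob mutation in every cell and make no leptin: 5 received saline (label ob/ob-d30) and 7 received atrasentan, a blocker of the endothelin A receptor (label BTBR ob), at 5 mg per kg per day in drinking water. Treatment ran from 18 weeks of age for 6 weeks, and mice of all 3 groups were killed at 24 weeks. The labels do not explain d30, and every library carries the same batch label.

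Oxidative phosphorylation turns the energy of electrons into ATP in the inner mitochondrial membrane. Complexes I and II take electrons from NADH and succinate, complex III and the carrier cytochrome c pass them on, complex IV gives them to oxygen, and the proton gradient built on the way drives complex V, the ATP synthase. Complex II is encoded by nuclear genes alone, while the other complexes join nuclear and mitochondrial products. In the kidney the proximal tubule is dense in mitochondria and lives on this pathway, whereas glomerular cells hold fewer. The amount of tubule in a glomerular preparation may bear on values below, and its part in them was not tested.

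Libraries held 29161833 to 52528747 reads on genes. A level is given in CPM, counts per 1e6 gene reads with library sizes scaled by the TMM method. In 7 atrasentan libraries 21396 to 23081 genes had a read, against 23901 to 25313 in the other 10, and 3.17% to 5.65% of reads lay outside genes, against 5.95% to 8.58%. The 20 proximal tubule markers had a mean log2 CPM of 5.81 to 6.81 in wild type, 6.47 to 8.76 with saline and 3.33 to 6.48 with atrasentan. Saline libraries 1 and 3 stood apart with 8.76 and 8.74. Their summed level was 1923 to 4088 CPM in wild type, 3384 to 16206 with saline and 551 to 3314 with atrasentan, and no marker was at 0 in any group. The glomerular origin of the tissue showed in podocyte markers, whose 15 genes summed to 9387 to 14911 CPM in wild type, 5226 to 10391 with saline and 2610 to 5749 with atrasentan. In bulk tissue, fewer cells of a type and less RNA per cell cannot be told apart.

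The count table measures only some of the mitochondrial genes. Reads were counted on 7 of the 13 and almost none on mt-Co2, mt-Co3, mt-Atp6, mt-Atp8, mt-Nd3 and mt-Nd4l, which held at most 3 reads each over all 17 libraries. These genes encode subunits that every complex I, IV and V needs. Mouse chromosome 1 carries a nuclear copy of this stretch of mitochondrial DNA (chr1:24611535-24616197, GRCm38, minus strand, annotated as 7 pseudogenes). Among 50-base windows, the length of a read, all of those of mt-Co2 also occur in an annotated transcript of another gene, as do 99.9% of mt-Co3, 99.5% of mt-Atp6, 98.8% of mt-Nd4l and 98.0% of mt-Nd3. The copy Gm28661 matches mt-Co2 at 681 of 681 aligned bases and Gm10925 matches mt-Atp6 at 678 of 678. The 7 copies held 421 reads in all libraries together, 375 of them on Gm28438, the copy of mt-Nd3. In each library 23.4% to 31.8% of reads were set aside because they aligned to more than 1 place, and whether they hold the reads of these genes was not tested. The stretches below show how complete the match is: they are 60 bases each and identical in mitochondrial DNA (chrM:7113-7172 and chrM:8027-8086, plus strand) and in the copy (chr1:24615406-24615465 and chr1:24614492-24614551, minus strand).
mt-Co2 and Gm28661: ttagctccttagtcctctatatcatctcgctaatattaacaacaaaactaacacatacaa
mt-Atp6 and Gm10925: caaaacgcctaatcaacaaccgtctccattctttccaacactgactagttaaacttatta

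For mt-Atp8, 0% of windows occur in another annotated transcript, and its 0 reads were not traced. It lies between mt-Co2 and mt-Atp6, and the matching part of chromosome 1 has no annotated transcript and was not analysed here. Of the genes with counts, mt-Nd4 (62.2% of windows shared) and mt-Co1 (51.1%) are read in part only, mt-Nd2 (8.2%) and mt-Nd5 (7.6%) nearly in full, and mt-Nd1, mt-Nd6 and mt-Cytb share no window. Complex V therefore has no measured mitochondrial subunit, and complex IV has mt-Co1 alone.

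**Figure D1:**
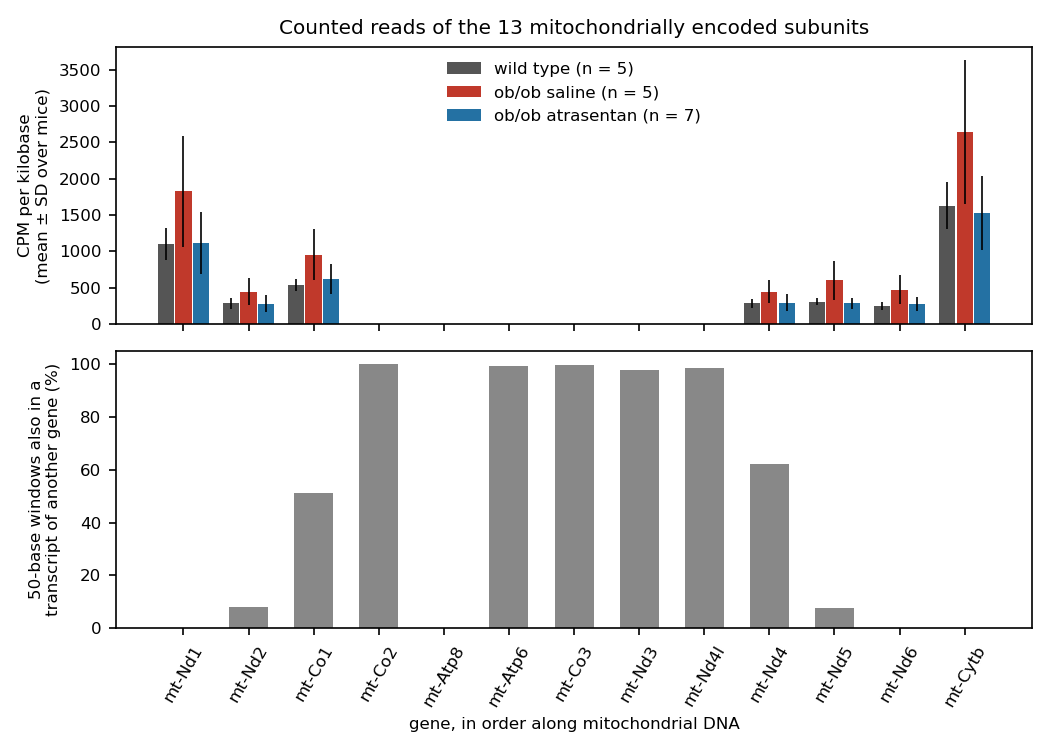
Top, level per length (CPM per kilobase of exon, mean ± SD over mice) of the 13 mitochondrially encoded genes in wild type (n = 5), saline (n = 5) and atrasentan (n = 7) mice, in the order of the genes along mitochondrial DNA; bottom, percent of each gene's 50-base windows that also occur in a transcript of another gene. The genes without counts from mt-Co2 to mt-Nd4l are those with 98.0% or more of windows shared, except mt-Atp8.

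Per length, mt-Cytb, the cytochrome b of complex III, was the highest of all members in each group: 1629 ± 320 CPM per kilobase in wild type (SD, n = 5), 2640 ± 991 with saline (n = 5) and 1525 ± 509 with atrasentan (n = 7). mt-Nd1, a membrane subunit of complex I, followed with 1108 ± 221, 1826 ± 763 and 1117 ± 431 CPM per kilobase. Mean ± SD of these neighbours overlaps in each group. In wild type the highest nuclear member per length was Atp5b, the catalytic beta subunit of ATP synthase, at 336 ± 38.7 CPM per kilobase. Libraries were made from poly(A) RNA, and mitochondrial messages carry short tails or, as mt-Nd6, almost none, so levels of mitochondrial and nuclear genes are not directly comparable.

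Summed over members, the nuclear genes took 1.08% ± 0.136 of gene reads in wild type, 1.29% ± 0.341 with saline and 0.935% ± 0.114 with atrasentan. The mitochondrial genes took 0.560% ± 0.107, 0.858% ± 0.306 and 0.483% ± 0.171. The saline group was the widest, with nuclear shares that ran from 0.941% to 1.71% and library 5 midway. Saline libraries 1, 3 and 5 had nuclear shares of 1.71%, 1.55% and 1.27% and mitochondrial shares of 1.24%, 1.07% and 0.876%, all above the wild type maximum of 1.24% for nuclear and 0.692% for mitochondrial genes. Saline libraries 2 and 4, with nuclear shares of 0.941% and 0.977%, lay inside the wild type range. The same 3 libraries led the proximal tubule markers (8.76, 8.74 and 7.68 in mean log2 CPM), while libraries 2 and 4 had 6.78 and 6.47. The log2 ratio of mitochondrial to nuclear member reads was -0.96 ± 0.17 in wild type, -0.63 ± 0.17 with saline and -1.03 ± 0.42 with atrasentan, and these groups overlap.

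**Figure D2:**
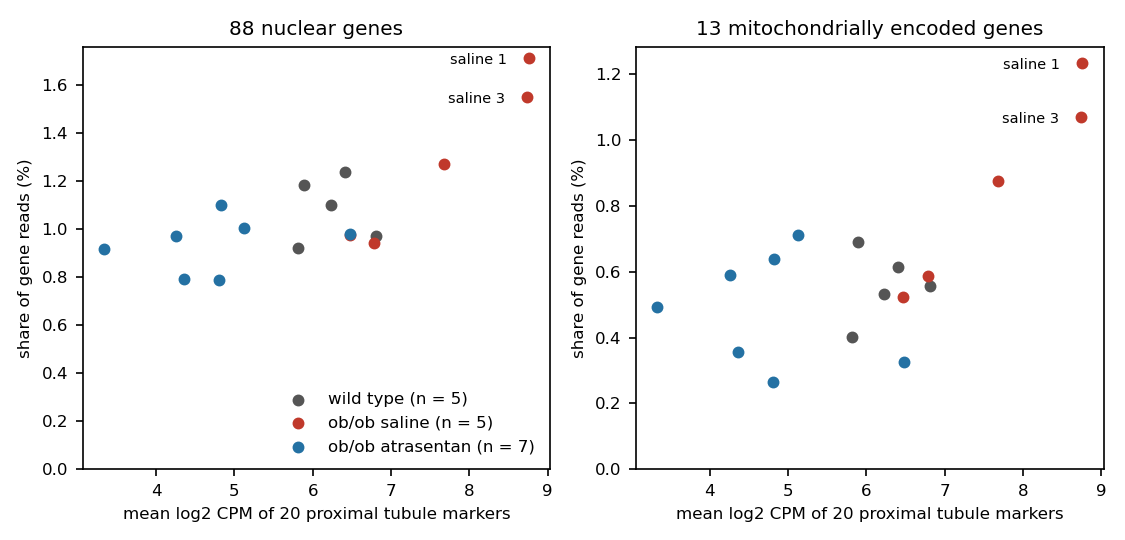
Share of gene reads (%) taken by the 88 nuclear genes (left) and the 13 mitochondrially encoded genes (right) against the mean log2 CPM of 20 proximal tubule markers, 1 point a mouse. Saline libraries 1 and 3 are highest on both axes, and the 7 atrasentan mice have nuclear shares between 0.786% and 1.10%, with 1 of them inside the marker range of the other groups.

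The low-count filter kept 89 of the 101 genes, 82 nuclear and 7 mitochondrial. Besides the 6 mitochondrial genes above, it removed the 4 processed pseudogenes and the isoforms Cox8b (muscle and brown fat) and Cox8c (testis). Of all members, 5 had no read in any library.

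Diabetic ob/ob mice given saline were first compared with wild type. By edgeR's quasi-likelihood test (Benjamini-Hochberg adjusted p under 0.05 over 17766 genes), 5.12% of all genes were called. Among the 89 members, 2 rose (Cox6a2 and mt-Nd5, against 3.21% of all genes called higher) and 1 fell (Ndufa4l2, against 1.91% called lower). The members' median log2 fold change was 0.18, beside 0.006 over all genes, and 68 of 89 had a positive value. All 4 subunits of complex II, which links the citrate cycle to the chain, had values of 0.47 to 0.59 (median 0.52), and none of the 4 passed the test, while all 4 had an unadjusted p under 0.05. The 7 measured mitochondrial genes had values of 0.64 to 0.98, with 1 of the 7 called. Nuclear complex I had a median of 0.13 over 35 genes and no call, complex III 0.31 over 9 with no call, complex IV 0.15 over 16 with 1 call in each direction, and complex V 0.091 over 17 with no call. Within complex I, a split made after values were seen put the 7 nuclear core subunits, which carry the flavin and iron-sulfur clusters, at a median of 0.28 and the 28 accessory subunits at 0.086.

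Ndufa4l2, a paralog of the complex IV subunit Ndufa4 that is induced by hypoxia and marks pericytes and other mural cells, was the 1 member that fell with saline and rose with atrasentan. Cox6a2 and mt-Nd5 were also called in both comparisons, higher with saline and then lower with atrasentan. Its levels were 83.7, 133.3, 77.5, 99.4 and 103.5 CPM in wild type and 55.7, 65.1, 59.6, 76.5 and 59.3 CPM with saline. With atrasentan they ran from 89.3 to 120.8 CPM with a median of 106.7. Every saline mouse lay below every wild type and every atrasentan mouse, while wild type and atrasentan overlapped. It fell by 0.65 ± 0.13 on the log2 scale with saline (SE; edgeR adjusted p = 0.0136) and rose by 0.79 ± 0.12 with atrasentan against saline (edgeR adjusted p = 0.000333). Its value with atrasentan against wild type was 0.14 ± 0.12 (edgeR adjusted p = 0.431). The call held in all 17 fits that left out 1 library, in both comparisons. With saline against wild type it was lost with the proximal tubule mean, or podocyte minus proximal tubule markers, as a covariate. With atrasentan against saline it was lost with the proximal tubule mean or the percent of reads outside genes as a covariate. Both comparisons use the same saline mice, so the opposite signs are not independent. Without saline libraries 1 and 3 the values were -0.57 (edgeR adjusted p = 0.136) and 0.70 (edgeR adjusted p = 0.00824).

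The gene (chr10:127514967-127517154, plus strand) overlaps Shmt2 on the other strand, the mitochondrial serine hydroxymethyltransferase of one-carbon metabolism, and the library kit does not mark strand. Shmt2 moved the other way, by 0.97 ± 0.22 with saline (edgeR adjusted p = 0.0236) and by -0.81 ± 0.20 with atrasentan against saline (edgeR adjusted p = 0.00600). Its mean level was 60.7 CPM in wild type, 118.9 with saline and 67.8 with atrasentan. The paralog Ndufa4 had 144 ± 35.8, 159 ± 36.6 and 128 ± 26.5 CPM in wild type, saline and atrasentan mice and was not called. Cox4i2, the oxygen-sensitive isoform of Cox4i1 and outside the 101 genes, also fell with saline, by 0.97 ± 0.25 (edgeR adjusted p = 0.0331), and its value with atrasentan against saline was 0.44 ± 0.23 (edgeR adjusted p = 0.149). Of 10 mesangium markers, mural cell genes among them, edgeR called 0 with saline (3 had an unadjusted p under 0.05), and 6 rose with atrasentan against saline, beside 15.3% of all genes called higher. Their summed level was 5782 to 7883 CPM in wild type, 6127 to 8709 with saline and 8797 to 14950 with atrasentan, with none at 0, and their part in the values of Ndufa4l2 was not tested.

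Cox6a2, the heart and muscle isoform of a complex IV subunit, was low throughout and highest with saline. Its levels were 0.465, 2.56, 1.61, 1.86 and 1.80 CPM in wild type and 4.57, 3.69, 6.65, 3.20 and 13.7 CPM with saline. With atrasentan they ran from 0.611 to 1.77 CPM, with a median of 1.01. Every saline mouse lay above every other mouse. It rose by 1.94 ± 0.45 with saline (edgeR adjusted p = 0.0248) and fell by 2.64 ± 0.41 with atrasentan against saline (edgeR adjusted p = 0.000320). Muscle and brown fat markers (Ckm, Acta1, Myh7, Ucp1 and Cidea) summed to at most 0.94 CPM in any library, with Myh7 and Ucp1 at 0 with atrasentan. The rise with saline was lost without wild type library 3 or 5 or saline library 3 or 5. The common isoform Cox6a1 had 225 ± 43.8, 265 ± 60.5 and 249 ± 49.9 CPM in wild type, saline and atrasentan mice, with no call. Groups of 2 members, Ndufa4l2 and Cox6a2, did not overlap between saline and wild type, beside 7.42% of all genes.

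mt-Nd5, a proton-pumping subunit of complex I, had 414.7, 551.5, 569.1, 607.3 and 649.1 CPM in wild type and 1734, 689.8, 1446, 571.4 and 1077 CPM with saline. Saline libraries 1, 3 and 5 were high and libraries 2 and 4 lay near wild type. It rose by 0.98 ± 0.27 (edgeR adjusted p = 0.0460), a call lost in 11 of the 17 fits without 1 library.

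**Figure D3:**
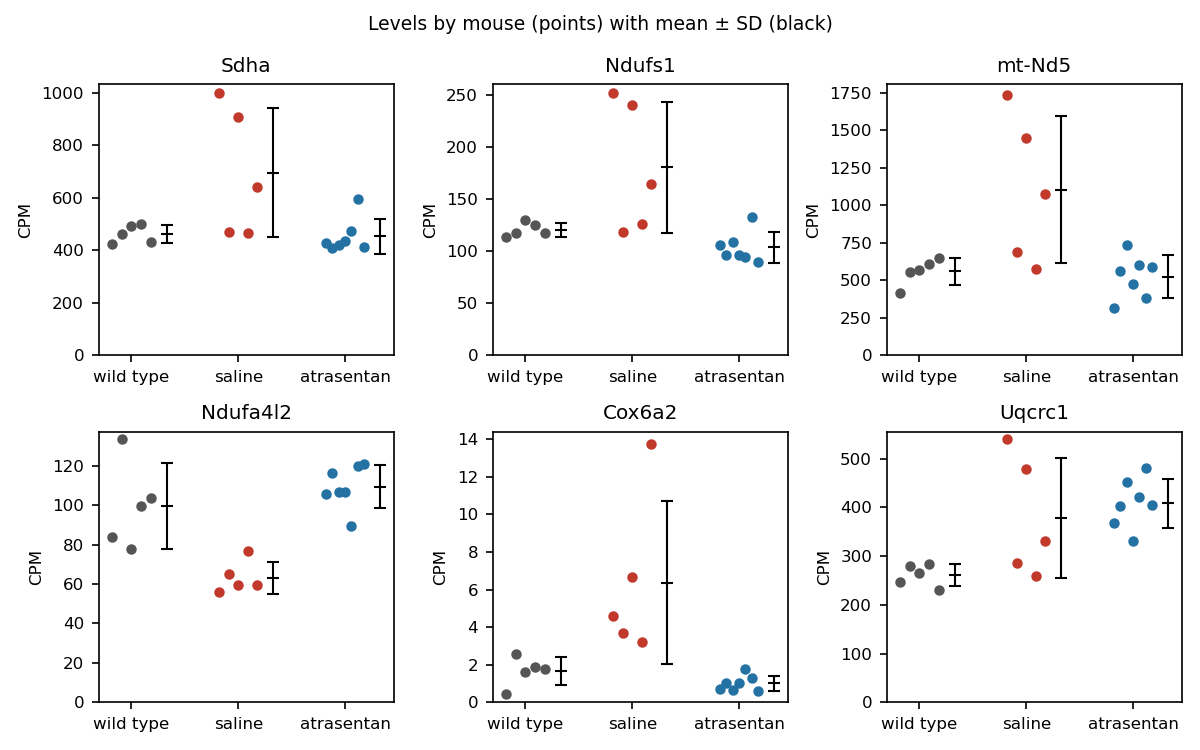
Levels (CPM) of 6 members in each mouse (points) by group, with mean ± SD in black. Ndufa4l2 is lowest and Cox6a2 highest in all 5 saline mice, Sdha, Ndufs1 and mt-Nd5 are high in saline libraries 1, 3 and 5, and Uqcrc1 is higher in all 7 atrasentan mice than in wild type.

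Atrasentan was next compared with saline in ob/ob mice. Of all genes, 33.8% were called. Among the 89 members 22 fell (24.7%, beside 18.5% of all genes called lower) and 1 rose (Ndufa4l2, beside 15.3% called higher). The median log2 fold change was -0.31, beside -0.005 over all genes, and 80 of 89 had a negative value. Groups did not overlap for 3 members, Ndufa4l2, Cox6a2 and Cox6b2, beside 11.8% of all genes.

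All 4 subunits of complex II fell. Sdha, the flavoprotein that oxidizes succinate, had 1001, 468.0, 906.4, 466.9 and 639.7 CPM with saline, and from 408.7 to 595.7 CPM with a median of 428.5 with atrasentan. Wild type mice had 423.8, 462.4, 494.1, 501.4 and 432.7 CPM. Saline libraries 1, 3 and 5 lay above every other mouse, and saline libraries 2 and 4 lay within the range of both other groups. Sdha fell by 0.62 ± 0.17 (edgeR adjusted p = 0.0103), Sdhb, the iron-sulfur subunit, by 0.60 ± 0.18, and the membrane anchors Sdhc and Sdhd by 0.50 ± 0.16 and 0.50 ± 0.17 (edgeR adjusted p = 0.0177, 0.0247 and 0.0313). The call of Sdha held in all 17 fits without 1 library, while those of Sdhb and Sdhc were lost without saline library 1 or 3. That of Sdhd was lost in 5 of the 17 fits, with limma-voom and with only the 2 groups compared. Against wild type the values of the 4 subunits were -0.03, -0.11, -0.04 and 0.06, with no call.

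In complex I, 2 of 35 nuclear subunits fell and 33 had no call (median -0.14). Ndufs1, the largest core subunit and a carrier of iron-sulfur clusters, had 252.1, 118.7, 240.9, 126.2 and 164.6 CPM with saline and 89.6 to 133.2 CPM with a median of 96.7 with atrasentan. It fell by 0.80 ± 0.16 (edgeR adjusted p = 0.00171). Eef1b2, which overlaps it on the other strand, had a value of 0.26 ± 0.13 (edgeR adjusted p = 0.137). The noncoding Ino80dos, also on the other strand, fell by 0.54 ± 0.20 (edgeR adjusted p = 0.0473) at mean levels of 3.87 and 2.66 CPM with saline and atrasentan. Ndufb2, an accessory subunit, fell by 0.37 ± 0.13 (edgeR adjusted p = 0.0315), and the flavin-binding Ndufv1 had a value of -0.39 ± 0.15 (edgeR adjusted p = 0.0538). The core subunits had a median of -0.29 over 7 genes and the accessory ones -0.084 over 28. Of the mitochondrial subunits of complex I, mt-Nd5 fell by 1.08 ± 0.25 and mt-Nd6 by 0.80 ± 0.27 (edgeR adjusted p = 0.00353 and 0.0331), while mt-Nd1, mt-Nd2 and mt-Nd4 had values of -0.71, -0.67 and -0.61 with no call. The call of mt-Nd6 was lost in 7 of the 17 fits without 1 library. The mt-Nd6 gene (chrM:13552-14070, minus strand) overlaps the end of mt-Nd5 (chrM:11742-13565, plus strand). Without strand, RNA of 1 gene can be counted on the other, so these 2 calls may not be independent. Which strand the reads on mt-Nd6 came from was not tested.

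In complex III, 3 of 9 nuclear subunits fell: the Rieske protein Uqcrfs1 by 0.83 ± 0.21, the core protein Uqcrc2 by 0.67 ± 0.17 and cytochrome c1 (Cyc1) by 0.60 ± 0.19 (edgeR adjusted p = 0.00673, 0.00781 and 0.0199). mt-Cytb fell by 0.79 ± 0.25 (edgeR adjusted p = 0.0227). The small hinge subunit Uqcrh had a value of -0.14 ± 0.18 (edgeR adjusted p = 0.572). Uqcrc1, the partner of Uqcrc2 in the complex, had 0.11 ± 0.16 (edgeR adjusted p = 0.614). The electron carrier Cycs fell by 0.62 ± 0.19 (edgeR adjusted p = 0.0188).

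In complex IV, 5 of 16 nuclear subunits fell, of which 3 are isoforms of restricted tissues: Cox6a2 and Cox7a1 of heart and muscle, and Cox6b2 of testis. Cox7a1 fell by 1.34 ± 0.40 (edgeR adjusted p = 0.0155) at mean levels of 1.92 and 0.756 CPM with saline and atrasentan. Cox6b2 fell by 0.70 ± 0.17 (edgeR adjusted p = 0.00499). The other 2 were Cox5a, by 0.56 ± 0.21 (edgeR adjusted p = 0.0468), and Cox7c. Gm26631, a noncoding gene on the other strand of Cox5a, fell by 1.93 ± 0.28 (edgeR adjusted p = 0.000246). Its mean levels were 2.02 and 0.527 CPM with saline and atrasentan. The call of Cox5a was lost in 14 of the 17 fits without 1 library, with limma-voom, with the authors' log2 table, without the low-count filter and with only the 2 groups compared. The call of Cox7c held in all 17 fits. The abundant isoforms Cox6a1, Cox6b1, Cox7a2 and Cox8a, at 101 CPM or more in each group, had values of -0.09, -0.20, -0.26 and -0.22 with no call. Cox7a2l, which joins complexes III and IV, had 0.15 ± 0.14 (edgeR adjusted p = 0.424).

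In complex V, 4 of 17 genes fell. Atp5b, the catalytic beta subunit, fell by 0.62 ± 0.18 and Atp5a1, the alpha subunit, by 0.59 ± 0.18 (edgeR adjusted p = 0.0145 and 0.0185). Mean levels with saline and atrasentan were 2161 and 1409 CPM for Atp5b and 1460 and 972 CPM for Atp5a1. Atp5f1 of the stator fell by 0.46 ± 0.17 (edgeR adjusted p = 0.0473) and Atp5l of the membrane part by 1.05 ± 0.34 (edgeR adjusted p = 0.0243). Gm30934, a noncoding gene on the other strand of Atp5l, fell by 1.09 ± 0.39 (edgeR adjusted p = 0.0409). Its mean levels were 0.561 and 0.257 CPM with saline and atrasentan. Haus1, on the other strand of Atp5a1, and Wdr77 and Gm42890, on that of Atp5f1, had 0.12, 0.10 and -1.63 with no call. Whether reads of 1 gene were counted on the other was not tested. The call of Atp5f1 was lost in 11 of the 17 fits without 1 library and in the same other fits as that of Cox5a. The 3 genes of the c ring, Atp5g1, Atp5g2 and Atp5g3, encode the same mature protein, and had values of -0.50, -0.61 and -0.49 with no call.

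**Figure D4:**
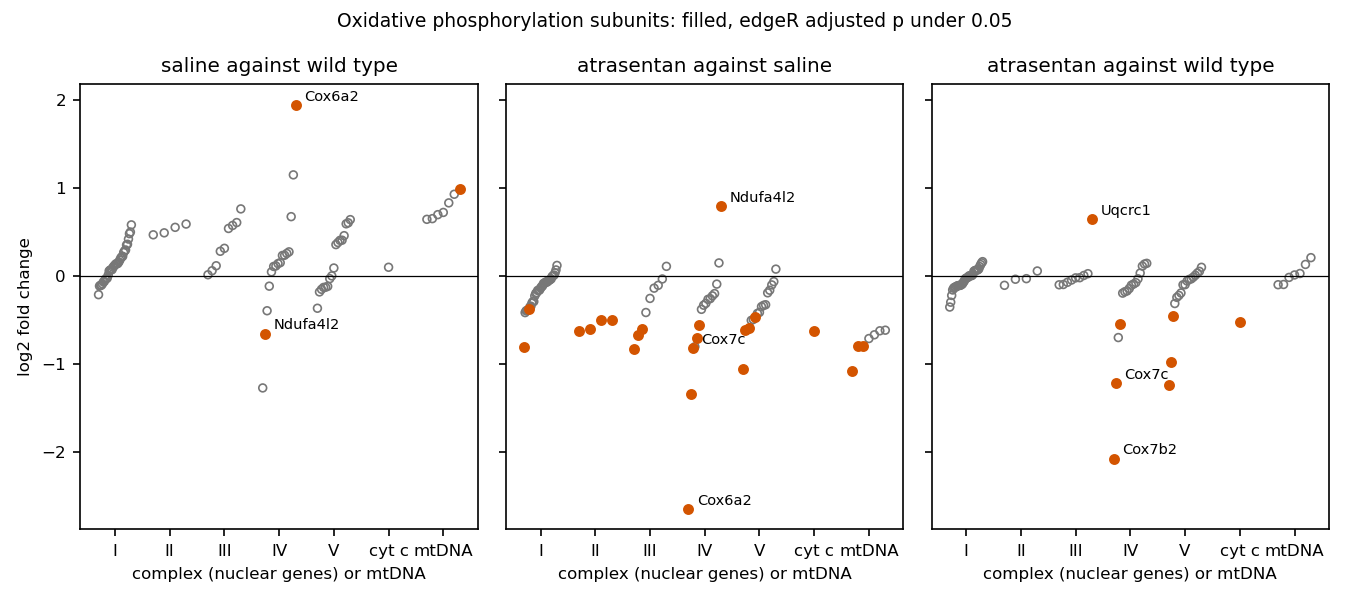
Log2 fold change of each tested member (89 points a panel) by complex for nuclear genes and as 1 column for the 7 measured mitochondrial genes, ordered by value within a column; filled points have an edgeR adjusted p under 0.05. Most points lie below 0 for atrasentan against saline, with Ndufa4l2 above, and near 0 for atrasentan against wild type.

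Beside the lower values with atrasentan, 18 of 20 proximal tubule markers fell against saline and 0 rose (median -2.99). Against wild type 9 of the 20 fell and 0 rose (median -1.24), while the median of the members was -0.045. Of all genes, 18.5% were called lower against saline and 14.5% against wild type. For atrasentan against saline, with the mean of these markers as a covariate, edgeR called 0 members (2 had an unadjusted p under 0.05). Their median was 0.16, while the calls over all genes dropped from 6001 to 50. The marker mean was 6.47 to 8.76 with saline and 3.33 to 6.48 with atrasentan. It nearly separates these groups, so this fit cannot tell tubule content from treatment. With podocyte minus proximal tubule markers as a covariate, 1 member of 89 fell (Cox6a2, -2.05) and 2 rose (Ndufa4l2, 0.72, and Uqcrc1, 0.62). Of all 17766 genes, 904 were called lower and 666 higher in that fit. Without saline libraries 1 and 3, the fallen members were 3 (Ndufs1, Cox6a2 and Atp5l), the risen ones 2 (Ndufa4l2 and Uqcrc1, 0.48), and the median was -0.034. Of all 18380 genes, 1562 were then called lower and 1015 higher. Without library 1 alone 10 of 89 members fell, beside 2643 of all 18015 genes, and without library 3 alone 9, beside 2465 of 18021. Without saline library 2 or 4, 35 and 36 members fell, beside 3360 of 18052 and 3226 of 18050 genes. The part of tubule RNA in the falls was not tested.

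Treated ob/ob mice were last set against wild type mice, with 29.2% of all genes called. Among the members 1 rose (Uqcrc1, beside 14.7% called higher) and 7 fell (7.87%, beside 14.5% called lower). The median was -0.045, beside -0.009 over all genes. Nuclear complex I (35 genes), complex II (4) and the mitochondrial genes (7) held no call, with medians of -0.027, -0.033 and 0.012. In complex IV 3 of 16 fell, in complex V 3 of 17, and Cycs fell. Groups did not overlap for 4 members, Uqcrc1, Cox6b2, Cox7b2 and Cox7c, beside 13.2% of all genes.

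Uqcrc1 (chr9:108936633-108949623, plus strand), a core protein of complex III, had 246.7, 278.9, 265.1, 282.8 and 229.6 CPM in wild type and 330.1 to 480.3 CPM with a median of 405.2 with atrasentan. Every atrasentan mouse lay above every wild type mouse. Saline mice had 539.5, 285.0, 477.6, 260.0 and 332.0 CPM, libraries 1 and 3 again the highest. The gene rose by 0.65 ± 0.16 against wild type (edgeR adjusted p = 0.00567), and the call held in all 17 fits without 1 library. With the percent of reads outside genes in the fit as a covariate the value was 0.15 (edgeR adjusted p = 0.843).

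Of the 7 members that fell, 6 had under 10 CPM in every group. Of the 11 tested members under that level 6 fell, and of the 78 above it 1 fell (Atp5s, by 0.45 ± 0.16) and 1 rose. Over all genes at any level, 14.5% were called lower. The share among all genes under 10 CPM was not computed, so this split is not read as a trait of low-count members. Cox7c, a small structural subunit of complex IV, had 4.61, 4.98, 4.33, 4.47 and 4.10 CPM in wild type, 3.42, 3.27, 4.12, 2.98 and 3.33 CPM with saline, and 1.11 to 3.04 CPM with a median of 1.84 with atrasentan. Wild type and atrasentan mice did not overlap, and it fell by 1.21 ± 0.21 (edgeR adjusted p = 0.000413). Atp5l fell by 1.23 ± 0.34, the c-ring gene Atp5g2 by 0.98 ± 0.30, Cycs by 0.52 ± 0.19 and the testis isoform Cox6b2 by 0.55 ± 0.17 (edgeR adjusted p = 0.0114, 0.0202, 0.0478 and 0.0220). Gm30934, on the other strand of Atp5l, also fell, by 1.09 ± 0.40 (edgeR adjusted p = 0.0457). The call of Cycs was lost in 12 of the 17 fits without 1 library and that of Atp5s in 8, both also without the low-count filter, and that of Cox6b2 without wild type library 2 or 3. Cox7b2, another testis isoform, had 2.06, 1.18, 2.40, 0.760 and 1.12 CPM in wild type and 0.054 to 0.692 CPM with atrasentan, and fell by 2.07 ± 0.48 (edgeR adjusted p = 0.00384).

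For several of these the counts cover only part of the gene. Windows of 50 bases shared with a transcript of another gene made up 36.7% for Atp5g2, 26.1% for Cycs, 22.1% for Cox7c and 8.7% for Atp5l. Their levels per length in wild type were 0.753, 1.46, 3.98 and 0.803 CPM per kilobase, against 117 for Atp5g3. Cox6b2 and Cox7b2 share none. Reads outside genes, which were lower in every atrasentan library, moved with these falls: with their share as a covariate, edgeR kept 0 of the 8 calls. Of all 89 members tested, 6 had an unadjusted p under 0.05 in that fit, beside 3669 of 17766 genes. The value of Cox7c was -0.81 (edgeR adjusted p = 0.310). The share of reads outside genes separates the groups fully, and its part in the result was not tested otherwise.

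**Figure D5:**
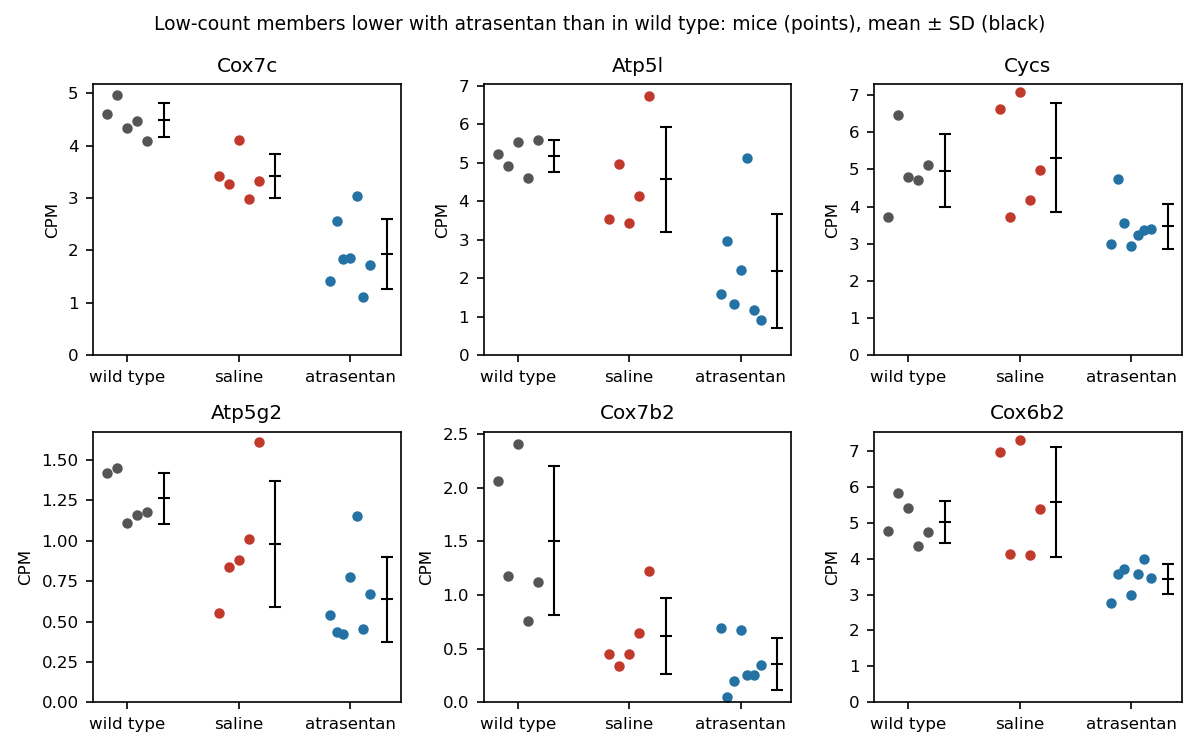
Levels (CPM) in each mouse (points) of 6 members under 10 CPM that fell with atrasentan against wild type, with mean ± SD in black. Cox7c, Cox7b2 and Cox6b2 do not overlap between wild type and atrasentan, while 1 or more atrasentan mice reach the wild type range for Atp5l, Cycs and Atp5g2.

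Nuclear subunit genes are textbook targets of the transcription factors NRF1, GABPA (of the ETS family), ERR alpha and YY1, so the letters of their motifs were searched on both strands in RefSeq promoters (GRCm38.p6, 250 bases before to 50 after the start). A promoter was found for 69 members, 67 by symbol and 2 by an older symbol. The NRF1-type motif (GCGCA, any base, GCGC) occurred in 17 of them (24.6%, beside 5.19% of 27025 genes), CCGGAAG (ETS-type) in 16 (23.2%, beside 9.93%), AANATGGCG (YY1-type) in 10 (14.5%, beside 2.76%) and TCAAGGTCA (ERR-type) in 2 (2.9%, beside 0.466%). A match is only a description of the letters. In complex II, Sdha held the NRF1-type letters, Sdhb the ETS-type, and Sdhd the NRF1-, ETS- and ERR-types, and the promoter of the c-ring gene Atp5g3 was the other one with the ERR-type. Stretches of 3 of these promoters are shown, 1 each for the NRF1-, ETS- and ERR-type letters, with the match in capitals. They lie outside annotated exons, read on the gene's own strand, at chr13:74350281-74350308, chr9:50603850-50603909 and chr2:73911327-73911446 (all minus strand), and hold an NRF1-type, an ETS-type and an ERR-type match, the last 2 on the strand opposite to the gene.
Sdha: ggaggggcgtgttGCGCAGGCGCagaat
Sdhd: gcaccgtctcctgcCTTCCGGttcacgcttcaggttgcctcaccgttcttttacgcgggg
Atp5g3: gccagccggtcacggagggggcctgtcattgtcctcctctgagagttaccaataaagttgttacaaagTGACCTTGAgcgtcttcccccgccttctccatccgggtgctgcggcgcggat

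The genes around the chain were read from lists of the pathway. Of 14 citrate cycle enzymes, edgeR called 0 with saline against wild type (median 0.55), though all 14 had an unadjusted p under 0.05. With atrasentan against saline 10 fell (median -0.54), beside 18.5% of all genes called lower. With atrasentan against wild type 0 were called and 0 had an unadjusted p under 0.05 (median -0.015). Suclg1 of succinyl-CoA ligase fell by 1.03 ± 0.22 and fumarase Fh1 by 0.73 ± 0.19 (edgeR adjusted p = 0.00263 and 0.00791). Of 12 transcription regulators 4 fell and 1 rose with atrasentan against saline, beside 18.5% of all genes called lower and 15.3% called higher. Ppara, the fatty acid receptor, fell by 3.12 ± 0.47, and the coactivator Ppargc1a, which drives mitochondrial biogenesis, fell by 1.16 ± 0.34 (edgeR adjusted p = 0.000289 and 0.0157). Nrf1, Gabpa and Esrra had values of 0.11, 0.04 and -0.40 with no call. Ppara had also risen with saline against wild type, by 1.97 ± 0.51 (edgeR adjusted p = 0.0365), the 1 regulator called there, beside 3.21% of all genes called higher.

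Of 22 genes for mitochondrial DNA expression 7 fell with atrasentan against saline, beside 18.5% of all genes called lower. Lrpprc, which stabilizes mitochondrial messages, fell by 0.82 ± 0.18 (edgeR adjusted p = 0.00303). Top1mt, the mitochondrial topoisomerase, fell by 1.11 ± 0.23 against saline and by 1.78 ± 0.23 against wild type (edgeR adjusted p = 0.00161 and 4.16e-05). The mitochondrial transcription factor Tfam had -0.12 ± 0.10 and -0.24 ± 0.10 with no call. Of 44 assembly factors 5 fell in each of these comparisons, beside 18.5% of all genes called lower against saline and 14.5% against wild type. With saline against wild type edgeR called 0 of them (8 had an unadjusted p under 0.05). Of 77 mitochondrial ribosome proteins 2 fell with atrasentan against saline and 4 against wild type, beside the same shares of all genes, with medians of -0.037 and -0.039. Of 20 import proteins and carriers 7 fell against saline (beside 18.5% of all genes), among them the chaperones Hspa9 and Hspd1 and the channel Vdac1. Against wild type 2 rose (Slc25a4, the ADP/ATP carrier, by 0.44 ± 0.14, and Tomm40) and 1 fell, beside 14.7% and 14.5% of all genes.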

How the data were processed

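Raw read counts per gene, 1 column per mouse, were used as deposited by the authors; STAR, HTSeq and GRCm38 are named, without versions, in the submitters' processing notes. The authors also deposited a normalized log2 table, whose transform no source used here states, and it served as an alternative only. The lines of the count table that name no gene were left out of library sizes; 23.4% to 31.8% of reads per library aligned to more than 1 place. The members and all gene lists were chosen with earlier results of these data known, and the split of complex I and the choice of printed promoters after values were seen.

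All 17 libraries were fitted together in edgeR 4.0.16 (R 4.3.3; TMM factors 0.892 to 1.15, filterByExpr, quasi-likelihood F test, two-sided, Benjamini-Hochberg over 17766 genes, threshold 0.05, biological coefficient of variation 0.312), after the script was tested on simulated data. Replicates are mice, numbered in accession order. Named members were the mitochondrial genes, in each comparison the 3 nuclear members of each complex with the smallest p and the 5 largest rises and falls called, tissue isoforms, complex II, Cyc1 and Cycs; Atp5f1 and mt-gene copies were named after their values were seen. Windows of 50 bases were matched to GENCODE M21 transcripts, not to a genome as planned. Overlapping genes (48 members have one) cannot be told apart without strand. Alternatives were DESeq2 1.42.0, limma 3.58.1 (voom, and on the log2 table), other scalings, no filter, marker and read-share covariates, 2 groups only, and left-out libraries. Some genes are not reported here by name.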

Additional observations from a re-analysis of the deposited data

Results flagged for a closer look

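In 141 groups of values tested for a single mouse standing apart, 4 had one, and chance gives about 1 in 20. Atp5a1 reached 1289 CPM in atrasentan library 6, with the next at 1039 CPM, and Sdha reached 595.7 CPM in the same library, with the next at 473.7 CPM. Cox5a reached 113.4 CPM in atrasentan library 3 (next 80.8 CPM) and Cycs 4.74 CPM in atrasentan library 2 (next 3.57 CPM).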

How the results depend on the processing

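For saline against wild type, 910 genes and 2 higher and 1 lower member were called. All-gene calls were 52 with the proximal tubule mean, 5 with podocyte minus proximal tubule markers and 409 with the percent of reads outside genes as covariate, 1430 with only the 2 groups compared, 550 with limma-voom, 1991 with DESeq2 and 54 without saline libraries 1 and 3. Higher members were 1 with upper-quartile scaling, with the share of outside reads, with 2 groups only, with limma-voom and with the authors' log2 table, 16 with DESeq2, and 0 with both marker covariates and without saline libraries 1 and 3. In the last 3 settings 0 members were lower, and edgeR gave 2 members an unadjusted p under 0.05 in each. Without mitochondrial genes in the library size 1 member was higher. That fit also left those genes out of the test (82 members tested), so mt-Nd5 could not be called.

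For atrasentan against saline (6001 genes, 1 higher and 22 lower members), calls were 50 genes with 0 and 0 members under the proximal tubule covariate, 1570 genes with 2 higher and 1 lower under podocyte minus proximal tubule, 1931 genes with 0 higher and 12 lower under outside reads, and 2577 genes with 2 higher and 3 lower without saline libraries 1 and 3. For atrasentan against wild type (5190 genes, 1 higher and 7 lower members), outside reads gave 582 genes with 0 and 0 members. The proximal tubule covariate gave 5 higher and 3 lower members, beside 2278 higher and 1648 lower of all 17766 genes.

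In atrasentan against saline the proximal tubule covariate turned the sign of 63 of 89 members, none with a call, and podocyte minus proximal tubule that of 59. Of the 23 members called without a covariate, the first turned 13: Atp5a1 0.385, Atp5b 0.344, Atp5f1 0.236, Cox5a 0.347, Cox7a1 0.521, Cyc1 0.339, Ndufs1 0.126, Sdha 0.341, Sdhb 0.219, Sdhc 0.3085, Sdhd 0.320, Uqcrc2 0.220 and Uqcrfs1 0.263. The second turned 6: Atp5a1 (0.00756), Atp5f1 (0.0552), Cox5a (0.121), Cyc1 (0.0239), Sdhc (0.0219) and Sdhd (0.0484). In atrasentan against wild type the proximal tubule covariate turned 34 of 89, of which Atp5b (0.442) and Sdha (0.425) were then called. In saline against wild type the 2 covariates turned 26 and 64, none with a call. The proximal tubule mean nearly separates saline from atrasentan mice, and the cause of these changes was not tested.

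Leaving out each library in turn gave, for saline against wild type, 216 to 1523 genes, 0 to 18 higher and 1 to 1 lower members. For atrasentan against saline it gave 4361 to 6338 genes, 1 to 1 higher and 9 to 36 lower members, and against wild type 4092 to 5622 genes, 1 to 1 higher and 4 to 7 lower. Group means of the nuclear share ran from 1.043% to 1.122% in wild type, 1.185% to 1.378% with saline and 0.907% to 0.960% with atrasentan, and of the mitochondrial share from 0.526% to 0.599%, 0.764% to 0.942% and 0.445% to 0.520%. As a share of all reads the nuclear values were 0.688%, 0.832% and 0.611%, and the mitochondrial value in wild type was 0.356%. As a share of gene reads that value fell from 0.560% to 0.426% without mt-Co1, mt-Nd4 and the other members whose windows are mostly shared.

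Upper-quartile scaling moved the all-gene median to -0.074 with saline and -0.084 with atrasentan, both against wild type, and split calls into 503 higher and 483 lower (570 and 340 with TMM) and 1897 and 3153 (2619 and 2571). The 3 groups were separate mice, so no paired analysis was made.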

Other observations

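Cell type markers beyond those above also moved between the groups. Of all genes, 15.3% were called higher and 18.5% lower with atrasentan against saline, and 14.7% and 14.5% with atrasentan against wild type. With saline against wild type 3.21% were called higher and 1.91% lower. Of 12 glomerular endothelium markers 8 rose with atrasentan against saline and 7 against wild type, and of 10 macrophage markers 8 and 7 rose, while with saline against wild type edgeR called 0 of either list (1 and 3 had an unadjusted p under 0.05). Podocyte markers fell in all 3 comparisons: 8 of 15 with saline against wild type, 7 with atrasentan against saline and 14 with atrasentan against wild type. Of 10 markers of the thick ascending limb and distal tubule 2 fell with atrasentan against saline, and of 9 collecting duct markers 3 fell. The part of these cell types in the values of the subunit genes was not tested.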
